A study of Homo sapiens with 4 samples.

Results

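The mRNAs of 9 marker genes of carcinoma cells were examined in the extracellular vesicles (EVs) of PC3 cells. The members were fixed by name and matched by their Ensembl identifiers, and all 9 were found among the 58051 genes of the total RNA tables, of which 19629 are protein-coding. They comprise 6 epithelial markers, the keratins KRT7, KRT8, KRT18 and KRT19 and the surface proteins CDH1 and EPCAM, and 3 mesenchymal markers, VIM, ZEB1 and FN1. PC3 is an established prostate cancer cell line from a bone metastasis, grown here in DMEM with fetal bovine serum. Per the study's methods, EVs were collected from medium whose serum had been freed of exosomes, by the exoEasy Maxi kit and gravity flow chromatography. The labels give qEV columns, a gravity flow chromatography, for the isolation. The labels give neither treatment nor genotype, and both libraries come from the same line. No RNA of the cells themselves and no EVs of another line were analysed here, so the values describe the EV-RNA alone. In such bulk RNA, fewer EVs with a transcript and fewer copies per EV cannot be told apart.

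Epithelial cells hold together through junctions built on E-cadherin, which CDH1 encodes, and are stiffened by keratin filaments, in which a type II keratin such as KRT7 or KRT8 pairs with a type I keratin such as KRT18 or KRT19. In the epithelial to mesenchymal transition (EMT), carcinoma cells can lose E-cadherin and gain vimentin, the filament protein encoded by VIM, and fibronectin, the matrix protein encoded by FN1. ZEB1 is a transcription factor of this transition that represses CDH1, and microRNAs of the miR-200 family in turn repress ZEB1.

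Stranded total RNA libraries of 2 biological replicates, as the study's methods call them, were sequenced, and the authors deposited raw counts of reads per gene. The title of replicate 2 carries the same isolate label, EX1, as that of replicate 1, while its description carries EX2, so whether the libraries come from separate isolates is uncertain and their SD may be technical. The depth was low, with 489170 reads counted on genes in replicate 1 and 475942 in replicate 2, from 2.16% to 2.50% of the reads the files account for. Values were scaled to CPM, counts per 1000000 reads on genes, so a single read is worth from 2.04 to 2.10 CPM. Reads that aligned to more than 1 place made up from 45.5% to 48.1% and were not counted. With 1 condition, no test between conditions applies, and 95% Wilson intervals are given for counting error only, since amplified reads are not independent molecules. Of 11 luminal prostate markers 1 had a read in both libraries, HOXB13, a homeobox factor of the prostate, with 15 and 6 reads, and the other 10, KLK2 and KLK3 among them, had none. Over all protein-coding genes 21.9% had a read in both, so at this depth the list says little of the line's identity.

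The sequences below are parts of coding exons of VIM and CDH1 that lie opposite an exon of a gene on the other strand, and they are shown because more reads were counted on that other gene than on the marker in both libraries. All are read 5′ to 3′ on the plus strand of GRCh38, the strand of both marker genes, and capitals mark the start codon of VIM.
VIM exon 2, opposite VIM-AS1, chr10:17229423-17229512: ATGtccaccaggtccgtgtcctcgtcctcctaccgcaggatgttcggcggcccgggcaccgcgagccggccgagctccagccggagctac
VIM exon 5, opposite ENSG00000234961, chr10:17233770-17233859: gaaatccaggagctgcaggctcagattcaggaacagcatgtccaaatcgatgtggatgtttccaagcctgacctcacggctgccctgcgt
CDH1 exon 13, opposite ENSG00000260798, chr16:68823399-68823488: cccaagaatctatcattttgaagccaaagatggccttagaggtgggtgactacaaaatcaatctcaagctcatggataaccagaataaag

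Most reads counted on the markers were keratin reads, and KRT8 alone took 76.9% ± 0.841 (SD, n = 2) of the reads counted on the 9 genes. The strand setting of the counting is not stated in the sources used here, and genes opposite VIM held more reads than VIM. Whether the reads counted on any member are of its own strand was not tested. Of the 9 members, 7 had at least 1 read in both replicates, against 21.9% of all protein-coding genes, and 4, namely KRT8, KRT18, KRT19 and VIM, had at least 10 reads in both, against 11.6%. KRT7 had no read in either replicate and ZEB1 had reads only in replicate 2. Together the 9 genes held 0.259% of all gene counts in replicate 1 and 0.295% in replicate 2.

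KRT8 (ENSG00000170421, chromosome 12, 52897187 to 52949954, minus strand) encodes the type II keratin of simple epithelia. It had 966 reads in replicate 1, or 1975 CPM (95% interval 1854 to 2103), and 1088 reads in replicate 2, or 2286 CPM (2154 to 2426). The mean of 2130 CPM ± 220.1 (SD, n = 2) placed it at rank 19 of all protein-coding genes in CPM and at rank 32 per kilobase of exon. The libraries were close for this gene, although their intervals did not overlap. The protein-coding genes nearest to it in log2(CPM + 1) over the 2 libraries were MT-ND4L with 1040 and 1018 reads, RPS2 with 1151 and 948 and YBX1 with 1082 and 877, which with so few libraries reflects a like level only.

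KRT18 (ENSG00000111057, chromosome 12, 52948871 to 52952906, plus strand), is the type I partner of KRT8, and its count was 94 in replicate 1, or 192 CPM (157 to 235), and 87 in replicate 2, or 183 CPM (148 to 225). Its mean of 187 CPM ± 6.62 (SD, n = 2) showed the least spread of the 8 members with reads, and it ranked 282. KRT19 (ENSG00000171345, chromosome 17, 41523617 to 41528308, minus strand), the smallest type I keratin, was counted 36 times in replicate 1, or 73.6 CPM (53.2 to 102), and 78 in replicate 2, or 164 CPM (131 to 205). KRT19 was thus 2.23-fold higher in replicate 2, with intervals that did not overlap. KRT7 (ENSG00000135480, chromosome 12, 52232520 to 52252186, plus strand), a type II keratin of ducts and glands, had 0 reads in both, which at 3 counts allows a level of up to 6.13 CPM in replicate 1 and 6.30 CPM in replicate 2.

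Few reads fell on the adhesion genes. For CDH1 (ENSG00000039068, chromosome 16, 68737292 to 68835537, plus strand), the E-cadherin gene, there were 4 reads in replicate 1, or 8.18 CPM (3.18 to 21.0), and 14 in replicate 2, or 29.4 CPM (17.5 to 49.4). The count was higher in replicate 2, with intervals that overlapped by a small margin. EPCAM (ENSG00000119888, chromosome 2, 47345158 to 47387601, plus strand), a cell adhesion protein of epithelia that is also used to capture tumour-derived EVs, showed a count of 2 in replicate 1, or 4.09 CPM (1.12 to 14.9), and 26 in replicate 2, or 54.6 CPM (37.3 to 80.0). Nearly all EPCAM reads therefore came from a single library.

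Among the mesenchymal markers, VIM carried most of the reads. The count of VIM (ENSG00000026025, chromosome 10, 17228241 to 17237593, plus strand) was 130 in replicate 1, or 266 CPM (224 to 316), and 87 in replicate 2, or 183 CPM (148 to 225). Its mean was 224 CPM ± 58.7 (SD, n = 2), rank 223, and the intervals overlapped by a small margin. No read of ZEB1 (ENSG00000148516, chromosome 10, 31318495 to 31529814, plus strand) was counted in replicate 1, which allows up to 6.13 CPM, and 22 were counted in replicate 2, or 46.2 CPM (30.5 to 70.0). FN1 (ENSG00000115414, chromosome 2, 215360440 to 215436073, minus strand) went the other way, with 34 reads in replicate 1, or 69.5 CPM (49.7 to 97.1), and 2 in replicate 2, or 4.20 CPM (1.15 to 15.3). Beyond VIM, all or nearly all reads of each mesenchymal marker came from a single library, and not the same one.

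**Figure D1:**
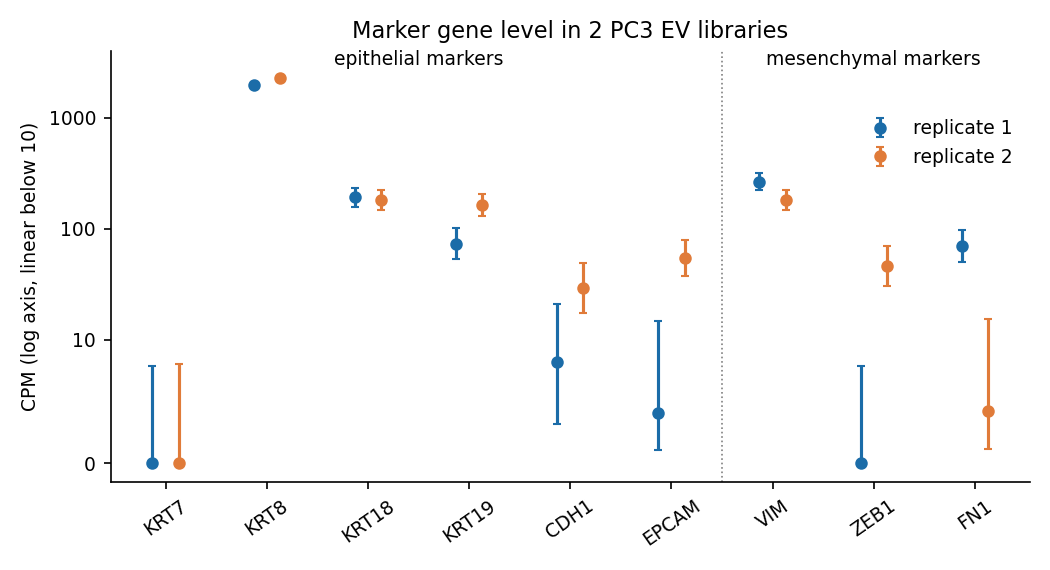
Level of each marker gene in CPM (log axis, linear below 10) in replicate 1 and replicate 2 of PC3 EV total RNA, with points for the measured level and bars for the 95% Wilson interval, which at 0 reads ends at 7.85 CPM in replicate 1 and 8.07 CPM in replicate 2. KRT8 sits at 1975 and 2286 CPM, KRT18 and VIM lie between 183 and 266 CPM, while EPCAM, ZEB1 and FN1 are near 0 in 1 library and between 46.2 and 69.5 CPM in the other, and KRT7 is at 0 in both.

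The spread between the replicates was examined for the markers against that of other genes. Of the 8 members with at least 10 reads summed over both libraries, 5 had intervals that did not overlap, namely KRT8, KRT19, EPCAM, ZEB1 and FN1. Over all 5764 protein-coding genes with as many reads the share was 56.4%, so disagreement of this kind was common in these libraries. ZEB1 was the 1 member of the 8 without a read in a library, against 30.5% of those genes. This compares 2 libraries of 1 condition and says nothing of conditions.

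The 6 epithelial genes together had 1102 reads in replicate 1 and 1293 in replicate 2, and the 3 mesenchymal genes 164 and 111. In CPM this was 2485 ± 328 (SD, n = 2) against 284 ± 72.2 (SD, n = 2). Epithelial genes took 87.0% of the member reads in replicate 1 (95% interval 85.1 to 88.8%) and 92.1% in replicate 2 (90.6 to 93.4%). The balance rested on KRT8. Without it, the epithelial genes took 45.3% in replicate 1 (39.8 to 51.0%) and 64.9% in replicate 2 (59.5 to 69.9%), and the interval of replicate 1 includes an equal split of the classes. The balance also changed when the whole counts of annotated opposite-strand genes that are not members were added. This setting, chosen after the data were seen, could raise KRT7, CDH1 and VIM only, and gave a mean epithelial share of 30.0%. It is not a count of the other strand, which was not made.

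Levels of different genes were compared per kilobase of annotated exon. KRT8 stood first with a mean of 310 CPM per kilobase ± 32.0 (SD, n = 2), above KRT18 with 61.1 ± 2.16 by more than the spread. Within each library KRT8 was 4.58-fold and 5.58-fold higher than KRT18 per kilobase. KRT19 with 50.8 CPM per kilobase ± 27.3 and VIM with 43.3 ± 11.3 did not differ from each other, nor KRT19 from KRT18, beyond their spread. The next step down, from VIM to EPCAM with 12.1 CPM per kilobase ± 14.7, was larger than the spread. EPCAM, CDH1 with 3.09 ± 2.47, ZEB1 with 2.67 ± 3.78 and FN1 with 2.14 ± 2.68 followed, and no neighbours among these 4 differed beyond their spread. The median of the protein-coding genes identified in both libraries was 6.73 CPM per kilobase, and CDH1, ZEB1 and FN1 lay below it. The annotated exons of KRT8 sum to 6881 bases over all its transcripts, and those of its canonical transcript to 1784. Per kilobase of coding sequence instead, VIM with 160 came ahead of KRT18 with 145 and KRT19 with 98.9, and KRT8 stayed first with 1390.

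**Figure D2:**
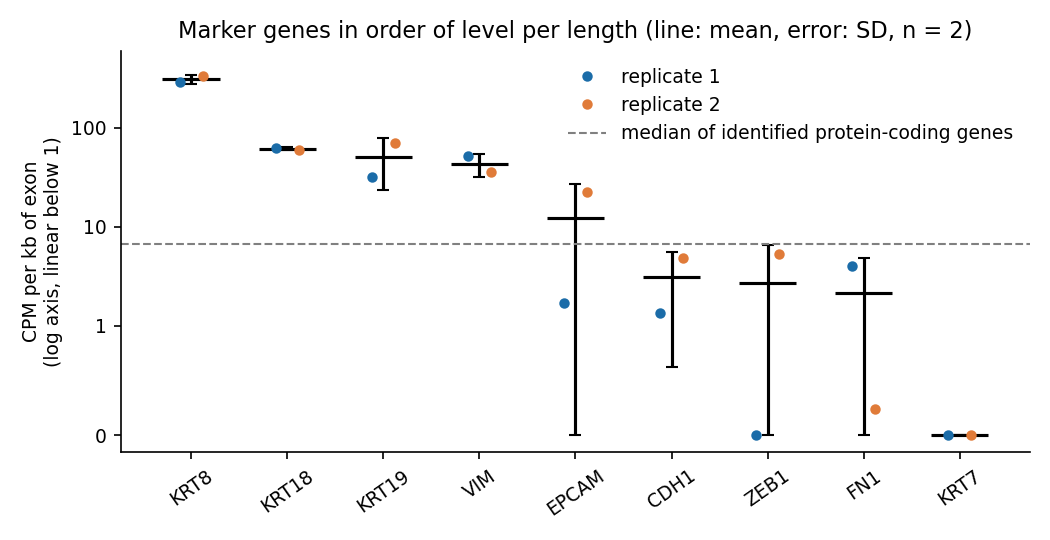
Level of each marker gene in CPM per kilobase of exon (log axis, linear below 1), in order of the mean, with points for the replicates, a line for the mean and error bars of SD, drawn no lower than 0. KRT8 stands apart at 310, KRT18, KRT19 and VIM lie between 43.3 and 61.1, and the dashed line marks the median of 6.73 for identified protein-coding genes.

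The opposite strand was examined because the sources used here do not state the strand setting of the counting. The library kit keeps the strand of the RNA, so this setting bears on the counts of all 9 members. That includes members without a read and those without an opposite-strand gene. Reads counted on genes made up from 2.16% to 2.50% of the reads, and reads assigned to no annotated feature from 35.4% to 36.3%. How many of the latter lie on the strand opposite a gene cannot be told from counts per gene. Whether the reads counted on a gene are of its own strand or of the other was not tested. Of the 9 members, 6 have exons opposite exons of a gene of the table on the other strand in GENCODE release 44, and KRT19, EPCAM and FN1 have none. The annotation release behind the counts is not given in the sources used here, so the exons used for counting may differ.

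At the VIM locus most reads were counted on the other strand. VIM-AS1, a long non-coding RNA (lncRNA) gene, had 1958 reads in replicate 1 and 2209 in replicate 2, which was 15.1-fold and 25.4-fold more than VIM. Its exons lie opposite 656 exonic bases of VIM, of which 563 are coding, from the start codon printed above to the end of the coding part of exon 2. A further lncRNA gene without a symbol, ENSG00000234961, had 534 and 725 reads and lies opposite 619 exonic bases of VIM in and around exons 4 to 6. Both lncRNA genes had more reads than VIM in each library. Per kilobase of exon they were at 2033 CPM ± 212 (SD, n = 2) and 1852 CPM ± 432 (SD, n = 2), levels within each other's spread.

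KRT8 and KRT18 lie back to back on chromosome 12, and in the annotation longer transcripts of KRT8 reach across the start of KRT18. They overlap in 525 exonic bases, of which 375 are coding sequence of KRT18 exon 1. None of the 525 bases belongs to the canonical KRT8 transcript. Reads counted on KRT8 exceeded those on KRT18 by 10.3-fold in replicate 1 and 12.5-fold in replicate 2 in CPM. How many of the KRT8 reads fell in the shared bases cannot be told from counts per gene.

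CDH1 lies opposite the lncRNA gene ENSG00000260798 over 347 exonic bases, of which 212 are coding, in exons 10 and 13. That gene had 8 and 20 reads against 4 and 14 on CDH1, and both were higher in replicate 2. KRT7-AS, opposite 282 exonic bases of KRT7, had 3 and 13 reads where KRT7 had none, and KRT87P, opposite 32 bases of KRT7, had 4 and 0. ZEB1-AS1, opposite 396 exonic bases at the start of ZEB1, had no read in either library. In the 5 pairs of a member and a lncRNA gene with at least 10 reads summed over both libraries on either gene, the lncRNA gene had the higher mean in 4. Over all 1980 such pairs of protein-coding and lncRNA genes it was higher in 53.1%. Where the reads on these opposite-strand genes came from was not tested. With the counts of opposite-strand genes that are not members themselves added to KRT7, CDH1 and VIM, a setting chosen after the data were seen, the mean level of VIM became 5854 CPM and the epithelial share of the member reads 30.0%.

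**Figure D3:**
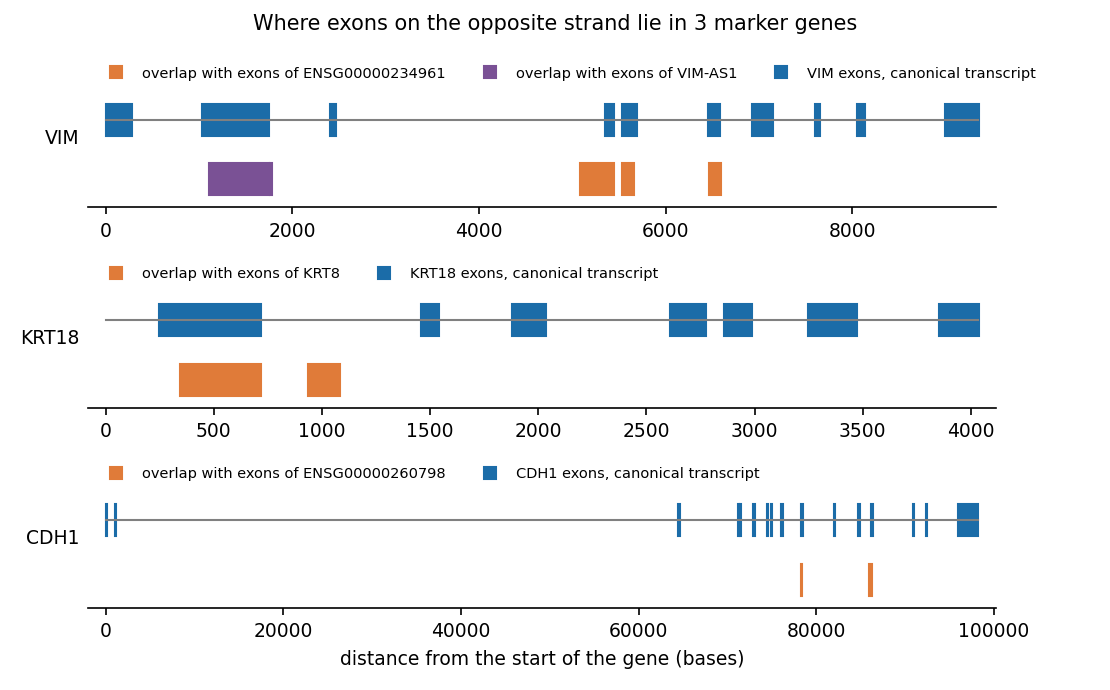
Exons of the canonical transcripts of VIM, KRT18 and CDH1 (upper row) and the exonic bases that lie opposite exons of a gene on the other strand (lower row), by distance from the start of the gene in bases. VIM-AS1 covers most of exon 2 of VIM, ENSG00000234961 lies at exons 4 to 6, KRT8 lies at exon 1 of KRT18, and ENSG00000260798 lies at exons 10 and 13 of CDH1.

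**Figure D4:**
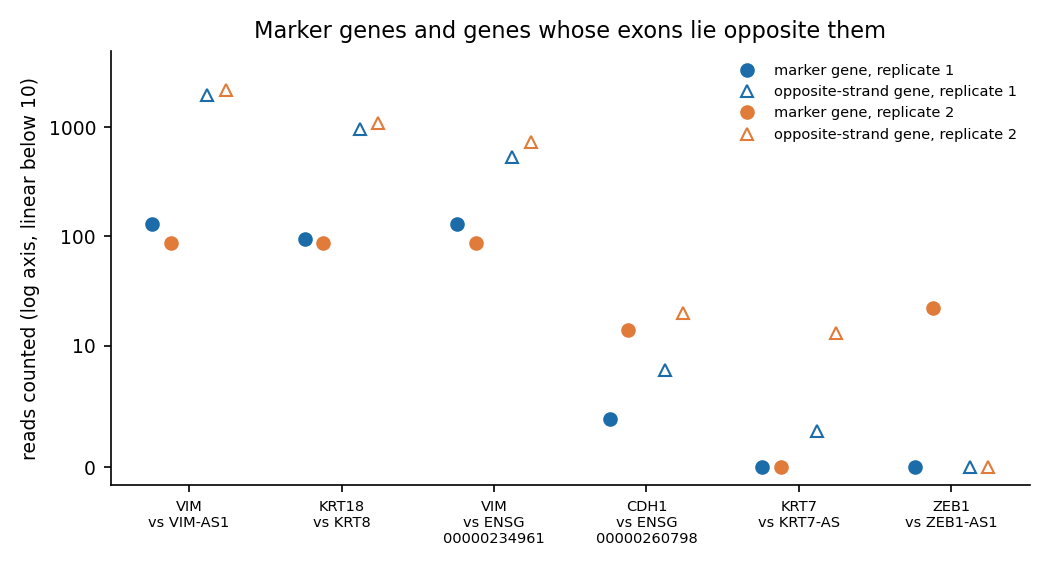
Reads counted (log axis, linear below 10) on marker genes (circles) and on the genes whose exons lie opposite them (triangles) in both replicates. The opposite-strand gene is higher in both libraries in the pairs of VIM, of KRT18 with KRT8, of CDH1 and of KRT7 with KRT7-AS, and ZEB1 with 0 and 22 reads is higher than ZEB1-AS1 with 0 and 0.

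Keratin genes have many processed pseudogenes, and reads shared with such a copy would have been set aside. The tables hold 67 pseudogenes named after KRT18, 51 named after KRT8 and 5 named after KRT19. Of those of KRT8, 5 had a read, 23 reads in all in replicate 1 and 40 in replicate 2. KRT8P12 on chromosome 3 had 18 and 24 of these and was the 1 with reads in both libraries. Those of KRT18 had 9 and 8 reads in all, led by KRT18P34 with 9 and 0, and those of KRT19 had none. The levels of KRT8, KRT18 and KRT19 therefore count uniquely placed reads only, and the part of reads set aside by gene was not tested.

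Most other keratins were not detected. Of 51 further keratin genes, 2 had reads in both libraries, KRT75 of the hair follicle with 20 and 26 and KRT15 of basal epithelia with 20 and 2, and 47 had no read in either. The share with reads in both was 3.92%, beside 21.9% of all protein-coding genes. Of 4 basal prostate markers, KRT15 had reads in both libraries, while the keratins KRT5 and KRT14 and the factor TP63 had none. That share of 25.0% is near that of all protein-coding genes, so at this depth the list says little. Of 15 intermediate filament genes outside the keratins 4 had reads in both libraries, or 26.7%, near the share of all protein-coding genes. They were the nuclear lamins LMNB2 with 107 and 163, LMNA with 90 and 141 and LMNB1 with 10 and 2, and nestin (NES) with 141 and 121. Per kilobase of exon, NES was at 48.7 CPM ± 4.32 (SD, n = 2) and LMNB2 at 52.0 CPM ± 16.2 (SD, n = 2), within the spread of KRT19.

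Genes related to CDH1, EPCAM and epithelial regulation were identified at shares from 16.7% to 30.0%, beside 21.9% of all protein-coding genes. The share was 26.1% for junction genes, 16.7% for partners and relatives of EPCAM and 30.0% for epithelial regulators. Of 23 further epithelial junction genes 6 had reads in both libraries, led by EVPL of the desmosomal plaque with 40 and 60, followed by CLDN4 of tight junctions with 40 and 14 and CTNNB1, the beta-catenin that binds E-cadherin, with 27 and 7. No read in either library fell on 11 of the 23, among them CTNNA1, TJP1 and DSP. Of 6 partners and relatives of EPCAM, the hyaluronan receptor CD44 with 72 and 44 reads was the 1 identified in both. Of 10 transcription and splicing regulators of epithelia, 3 were identified, the splicing factor ESRP2 with 56 and 76 reads, KLF4 with 30 and 18 and KLF5 with 14 and 25. Another 5, among them GRHL1, GRHL2 and OVOL1, had no read in either.

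Of 12 further EMT transcription factors 3 had reads in both libraries, TCF3 with 80 and 9, TCF4 with 15 and 5 and TWIST1 with 6 and 5, and ZEB2, SNAI1 and SNAI2 had none in either. Of 20 mesenchymal cytoskeleton and matrix genes 3 were identified, the collagen genes COL1A1 with 35 and 1 and COL1A2 with 1 and 12 and the tenascin gene TNC with 10 and 4. N-cadherin (CDH2), ACTA2 and SPARC had no read in either. COL1A1 and FN1 both had nearly all their reads in replicate 1. Of 7 integrin genes for fibronectin receptors 1 was identified, ITGB1 with 10 and 8 reads. The shares of identified genes were 26.1% for the junction genes, 25.0% for the EMT factors and 15.0% for the mesenchymal genes, near or below the 21.9% of all protein-coding genes, and 3.92% for the other keratins. The median level of the genes of a list ran from 0 CPM, as for the mesenchymal genes, the integrins and the other keratins, to 2.10 CPM for the junction genes and 11.3 CPM for the partners and relatives of EPCAM, beside a median of 0 CPM over all protein-coding genes. With at least 10 reads in both libraries, 5 of 23 junction genes and 3 of 10 epithelial regulators were identified, beside 11.6% of all protein-coding genes. Of the EMT factors 0 of 12 were, of the mesenchymal genes 0 of 20 and of the integrins 0 of 7. TCF3, with 80 and 9 reads, fell just short of this minimum, and the lists are small. No test between the lists was made.

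**Figure D5:**
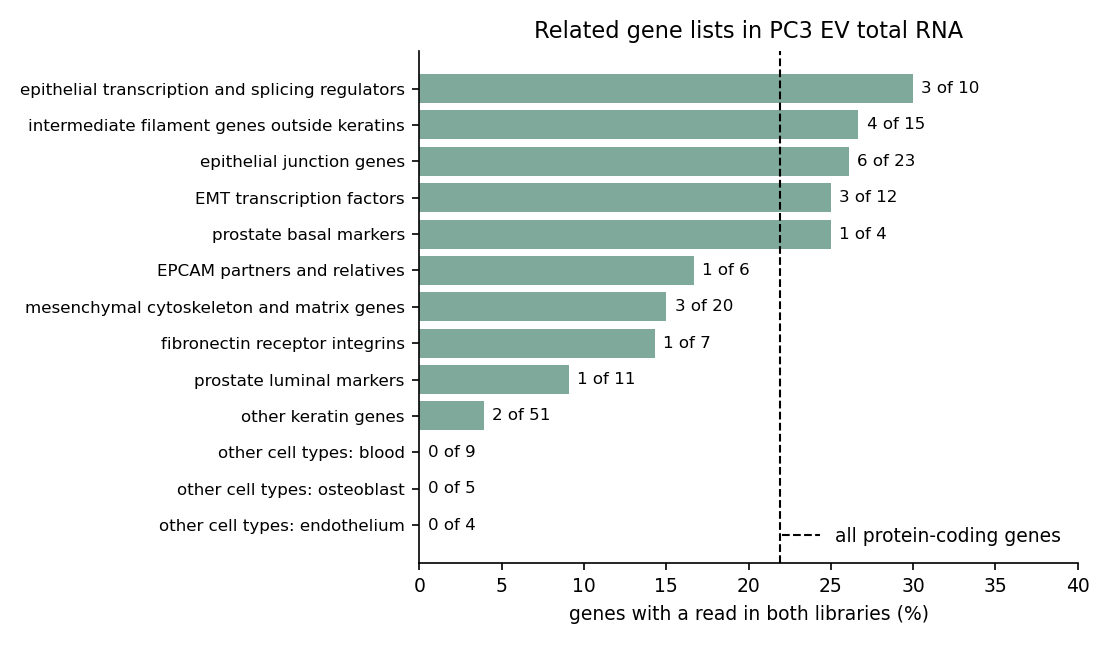
Share of genes with a read in both PC3 EV total RNA libraries, in percent, for lists related to the markers, with the number of genes beside each bar and a dashed line at 21.9% for all protein-coding genes. The bars of the junction, EPCAM, epithelial regulator, EMT factor, mesenchymal and integrin lists run from 14.3% to 30.0%, on both sides of the line. The bar of the other keratins ends at 3.92%, and those of blood, endothelium and osteoblast markers at 0.

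The microRNAs known to repress ZEB1 were looked up in the small RNA libraries of PC3 EVs. The columns of their count table do not show which replicate each is, and hold 154185 and 113185 reads on miRNAs. The mature sequences of the members with reads are given from RefSeq on GRCh38.p14, with the seed, bases 2 to 8, in capitals.
miR-200c-3p: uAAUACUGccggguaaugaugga
miR-141-3p: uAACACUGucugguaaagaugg
Reads were counted on both of these, which come from neighbouring hairpins on chromosome 12. For miR-200c-3p the counts were 11 and 4, with a mean of 53.3 CPM of miRNA reads ± 25.5 (SD, n = 2). miR-141-3p had 0 and 1. No read was counted on miR-200a-3p, miR-200b-3p, miR-429 or miR-205-5p in either library. These CPM are of miRNA reads and are not comparable with those of the mRNAs.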

How the data were processed

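Per the study's methods, reads were trimmed with Cutadapt and mapped to GRCh38, with SHRiMP named among the tools, and HTSeq is named in the submitters' processing notes. The deposited files hold raw counts, for Ensembl genes in the total RNA tables and for mature miRNAs in the small RNA table. Versions, strand setting and annotation release are not given in the sources used here. Counts were scaled to CPM of all reads counted on genes. Rows that name no gene were left out of the totals. As shares of all reads, from 35.4% to 36.3% were assigned to no annotated feature and from 45.5% to 48.1% aligned to several places. From 12.8% to 14.2% were not aligned, and under 1% each were ambiguous or of low quality. Of 58051 genes, 56948 matched GENCODE release 44, which gave symbols, types, exons and canonical transcripts. A gene was identified with at least 1 count in both replicates. Shares carry 95% Wilson intervals, and a count of 0 a limit of 3 counts. TMM factors came from edgeR 4.0.16 and size factors from DESeq2 1.42.0 in R 4.3.3, and other values from Python 3.11.15 with pandas 2.3.3, numpy 2.4.6, scipy 1.17.1 and matplotlib 3.10.9. Named genes are the members, their opposite-strand partners with at least 10 counts summed, the 3 pseudogenes with the most counts, the 3 identified genes highest in each list, or all identified genes where fewer than 4 were, and those nearest to KRT8. Other genes were named after their values were seen. The members and lists were chosen with earlier results of these data known.
Alternatives were other minimum counts, totals and lengths, and each replicate left out. Some genes and a sequence are not reported here.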

Additional observations from a re-analysis of the deposited data

How the results depend on the processing

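No paired analysis was possible because the libraries of an assay share a single condition, and no test between groups was made. With at least 10 counts, or at least 10 CPM, in both replicates, 4 members were identified in place of 7. Scaled to the counts on protein-coding genes, the summed level was 4221 CPM for epithelial and 481 CPM for mesenchymal members, and without the 10 most abundant genes 4404 and 505 CPM, because the total is smaller. The epithelial share was 55.1% without KRT8 and 30.0% with counts of opposite-strand genes that are not members added, an alternative chosen after seeing the data. Without length, 3 of 9 members kept their place in the order. Over the lists, 25 entries were identified, 13 with at least 10 counts in both replicates and 50 with a count in either. Leaving out either replicate gave from 7 to 8 identified members. The summed levels were from 2253 to 2717 CPM and from 233 to 335 CPM, and the epithelial share was from 87.0% to 92.1%. TMM and DESeq2 factors moved no member's level by more than 1.02 times. Depth limits CDH1, EPCAM, ZEB1 and FN1, each with 4 reads or fewer in a library. The unstated strand setting of the counting bears on the counts of all members, and other settings were not tested.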

Other observations

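Markers of other cell types were looked up in the total RNA of PC3 EVs, in which 21.9% of all protein-coding genes had a read in both libraries and the median gene was at 0 CPM. None of 9 blood cell markers, among them PTPRC, HBA1 and HBB, and none of 5 osteoblast markers, among them ALPL, BGLAP and RUNX2, had a read in either library. The paper reports RUNX2 mRNA in EVs of prostate cancer cell lines, so no read at this depth does not show absence. Of 4 endothelial markers, CDH5 and VWF had no read, while PECAM1 had 0 and 44 reads and KDR 10 and 0 in replicate 1 and replicate 2. The endothelial list summed to 20.4 CPM and 92.4 CPM in these libraries, and its part in the levels of the mesenchymal members was not tested.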
